A study of Oreochromis niloticus with 9 samples.

Results

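Fatty acid desaturases and elongases of the liver were examined in GIFT, a farmed strain of Nile tilapia bred for growth. The loci were taken by a symbol rule, which was set with earlier results of these data known. The rule keeps every locus whose symbol starts with fads, elovl or scd, followed by nothing, a letter a or b, or a number. This gave 16 of the 37283 loci in the table, 5 desaturase loci and 11 elongase loci, under 14 symbols. Of these symbols, 12 were found in the RefSeq gene table for Nile tilapia, fads2 was found there as a synonym only, and elovl4b was named from the expression table.

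The libraries came from juvenile fish fed a basal diet with 0% (C), 0.2% (APP_A) or 0.8% (APP_H) apple peel powder (APP) for 8 weeks. Apple peel is a by-product of apple processing, and the labels call the additive an extract (APE). There were 9 liver libraries, 3 per diet, each from the pooled livers of 5 fish of 1 tank, so the spread between libraries is that between tanks and hides the spread between fish. Levels are FPKM, which is the number of fragments scaled by transcript length and by the mapped reads of the library, as estimated by the authors, and read depth per locus was not part of the table, so counting error is unknown.

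Desaturases put a double bond into a fatty acid that is bound to coenzyme A. Stearoyl-CoA desaturase (scd) makes monounsaturated from saturated fatty acids, and fatty acid desaturase 2 (fads2) starts the conversion of dietary linoleic and linolenic acid to long-chain polyunsaturated fatty acids. Elongases of the elovl family carry out the condensation step that lengthens a fatty acid. In vertebrates Elovl6 acts mainly on saturated and monounsaturated chains made in the cell, Elovl5 and Elovl4 on polyunsaturated chains, and Elovl1 and Elovl7 on saturated and monounsaturated long chains.

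APP_H3 stood apart from the other libraries. Of 25 hepatocyte marker genes kept for testing, 24 lay below the median of the remaining 8 libraries, and their summed level was 3254 FPKM in APP_H3, against 49135 to 118131 FPKM in the others. All 9 exocrine pancreas markers were lower in it as well, with a sum of 840 FPKM against 3620 to 44122 FPKM, whereas none of 10 erythroid markers was lower and their sum was 2442 FPKM against 74.8 to 463 FPKM. No hepatocyte marker was at 0 in all 9 libraries, and of the erythroid markers epb41a was. APP_H2 had the lowest hepatocyte sum of the other 8 libraries (49135 FPKM), followed by APP_A1 (59505 FPKM) and C3 (60105 FPKM). In APP_H2 24 of the 25 markers were below the median of the C libraries, and as many were in APP_A1. Lymphoid markers, of which 7 were kept, had their highest sums in APP_H2 (154 FPKM) and APP_H3 (155 FPKM), against 22.0 to 60.0 FPKM in the other 7. Much of this was ptprc, at 110.39 FPKM in APP_H2 and 76.65 FPKM in APP_H3, and cd79a, at 57.79 FPKM in APP_H3. Not every lymphoid marker was high in both libraries. In APP_H3 cd8a (1.56 FPKM) was below C1 (2.72 FPKM) and C2 (4.80 FPKM). In APP_H2 cd79a (9.32 FPKM) was below C3 (10.21 FPKM). Myeloid markers, of which 12 were kept, summed to 257 FPKM in APP_H3, against 3118 to 7771 FPKM in the others. Most of each sum came from the LYZ loci, at 112.33 and 40.20 FPKM in APP_H3. In the others these were at 2303.22 to 6385.34 and 677.33 to 2498.57 FPKM. The sum does not give the direction of the list, as only 4 of the 12 were below the median of the others. By contrast, cyba, cybb, mpx, ncf1 and spi1b were higher in APP_H3 than in any other library. The part of these shifts in the desaturase and elongase levels was not tested, and in bulk liver RNA fewer cells of a type and less RNA per cell cannot be told apart. Each member's difference that involves APP_H is therefore given with and without APP_H3.

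The desaturases were dominated by scd. The locus lies on scaffold GL831148.1 of the table at 2477948 to 2486701. It was at 3939.56, 4492.14 and 2537.74 FPKM in C libraries, at 4622.84, 7492.04 and 3486.01 FPKM in APP_A libraries and at 4967.07, 619.27 and 85.78 FPKM in APP_H libraries. The 3 APP_A libraries and APP_H1 lay near or above the C libraries, while APP_H2 and APP_H3 lay below all of the other 7. The gene ranked between 35 and 141 among all loci of its library in those 7 libraries, but 556 in APP_H2 and 1404 in APP_H3. It held 73.8% to 94.4% of the summed desaturase FPKM of each library, with the lowest share in APP_H3 and the highest in C2.

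None of the differences of scd between diets passed the test, as each 95% interval included 0. In APP_H it averaged 1890.71 ± 2677.53 FPKM, against 3656.48 ± 1007.48 FPKM in C (SD, n = 3 each), and in APP_A it averaged 5200.30 ± 2064.50 FPKM. On the log2(FPKM + 1) scale, the difference of APP_H vs. C was -2.46 with a standard error (SE) of 1.30 and a limma adjusted p of 0.67, and without APP_H3 it was -1.02 (SE 0.86). The difference of APP_A vs. C was 0.48 (SE 1.30), with a 95% interval from -2.53 to 3.48. That of APP_H vs. APP_A was -2.94 (SE 1.30, limma adjusted p = 0.47), and -1.49 (SE 0.86) without APP_H3.

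The symbol fads2 was carried by a pair of adjacent loci, here called copy 1 and copy 2. Copy 1 lies on scaffold GL831142.1 at 8560101 to 8567640 and copy 2 at 8568597 to 8588849, with 956 bp between them, next to si:ch1073-89b12.1 on one side and ppp1r32 on the other. Because the copies may be similar in sequence, the way in which the authors' assembly divided reads between them is uncertain, and their sum is given as well.

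Of the 9 loci tested, copy 2 of fads2 was the one whose APP_A libraries all lay above C. Over all 20575 genes tested, 965 lay above C in this way, and 11.0% did not overlap in either direction. Copy 2 was at 163.74, 181.15 and 136.15 FPKM in C libraries, at 469.93, 510.60 and 282.99 FPKM in APP_A libraries and at 443.91, 77.63 and 22.22 FPKM in APP_H libraries. Every APP_A library exceeded every C library, and APP_H1 was within the APP_A range while APP_H2 and APP_H3 were below all C libraries. The APP_A mean was 421.17 ± 121.39 FPKM, against 160.35 ± 22.69 FPKM in C (SD, n = 3 each). The difference of 1.35 on the log2 scale (SE 0.98, 95% interval -0.91 to 3.62) had a limma adjusted p of 1. With APP_H3 left out of the shared estimate of spread, the SE of that difference was 0.65.

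For APP_H vs. C, copy 2 differed by -0.78 (SE 0.98, limma adjusted p = 0.79), and by 0.22 (SE 0.73) without APP_H3, so that the sign turned with this library. In APP_H vs. APP_A the difference was -2.13 (SE 0.98, limma adjusted p = 0.47), and -1.13 (SE 0.73) with that library left out.

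Copy 1 of fads2 showed no such separation. It was at 73.83, 85.06 and 39.13 FPKM in C libraries, at 172.31, 88.02 and 60.55 FPKM in APP_A libraries and at 142.18, 106.83 and 7.33 FPKM in APP_H libraries. The diets overlapped, with APP_H1 and APP_H2 above all C libraries and APP_H3 below all of the other 8. The log2 differences were 0.63 (SE 1.07) for APP_A vs. C and -0.34 (SE 1.07) for APP_H vs. C. Without APP_H3, that of APP_H vs. C was 0.96 (SE 0.55), and that of APP_H vs. APP_A was 0.34 (SE 0.55), against -0.96 (SE 1.07) with it. The copies did not keep 1 ratio: copy 2 was 2.22, 2.13 and 3.48 times as high as copy 1 in C libraries, 2.73, 5.80 and 4.67 times in APP_A libraries and 3.12, 0.73 and 3.03 times in APP_H libraries. APP_H2 was the only library of the 9 in which copy 1 exceeded copy 2.

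Summed over both copies, fads2 was at 237.57, 266.21 and 175.28 FPKM in C libraries, at 642.24, 598.62 and 343.54 FPKM in APP_A libraries and at 586.09, 184.46 and 29.55 FPKM in APP_H libraries. All APP_A libraries lay above all C libraries, as for copy 2 alone, and APP_H spanned the C range. The log2 difference of the sum was 1.19 (SE 0.99, limma adjusted p = 1) for APP_A vs. C, -0.59 (SE 0.99, limma adjusted p = 0.85) for APP_H vs. C and -1.77 (SE 0.99, limma adjusted p = 0.51) for APP_H vs. APP_A. Without APP_H3 the sign of APP_H vs. C turned, to 0.56 (SE 0.57), and APP_H vs. APP_A was at -0.63 (SE 0.57).

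**Figure D1:**
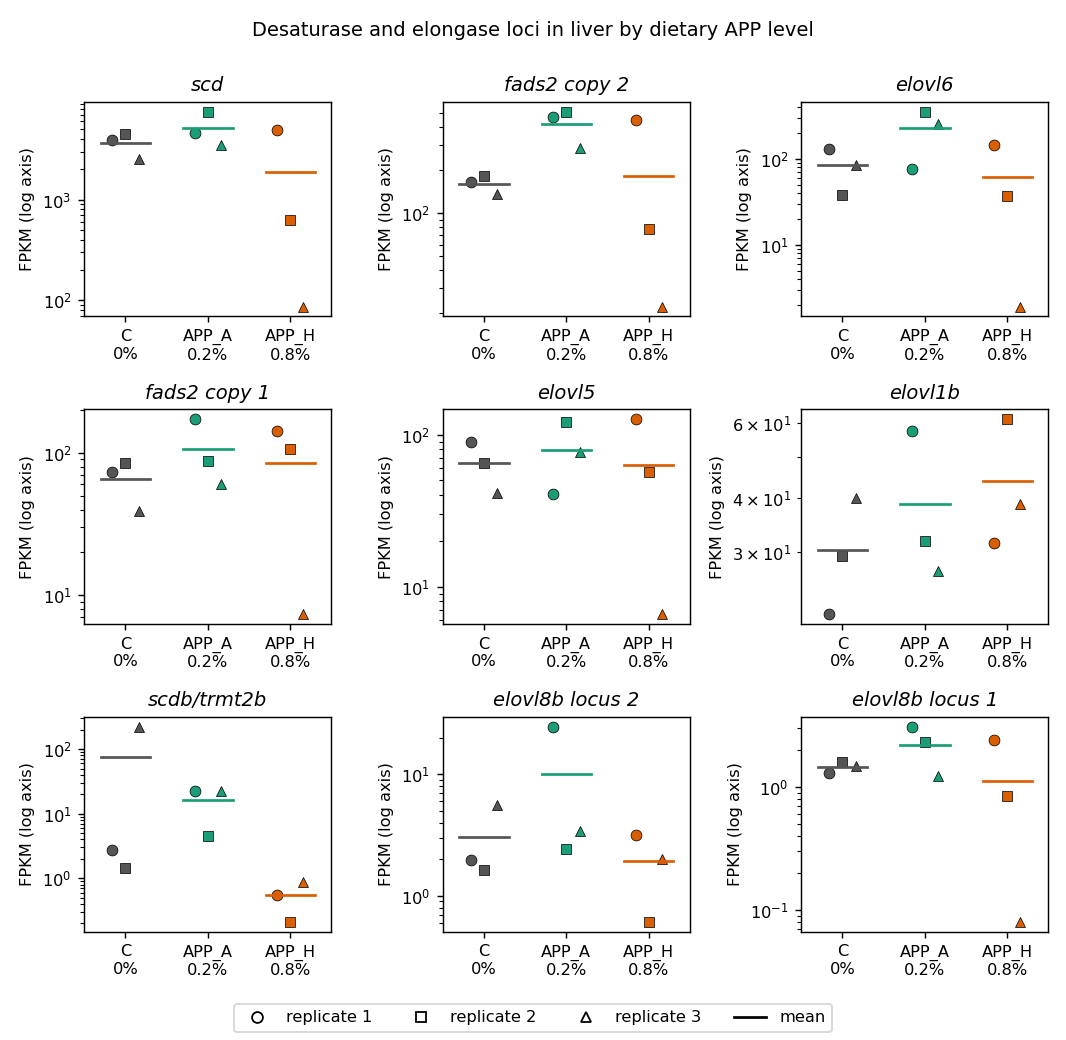
FPKM of the 9 desaturase and elongase loci kept for testing, on log axes that differ between panels, by diet (C, 0% APP; APP_A, 0.2%; APP_H, 0.8%). Each symbol is 1 library and each bar the arithmetic mean of 3. APP_H3 (triangle at 0.8%) is the lowest of the 9 libraries for scd, both fads2 copies, elovl6, elovl5 and elovl8b locus 1. For fads2 copy 2 each APP_A library is higher than each C library, as for 965 of the 20575 genes tested.

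The remaining desaturase loci were low or could not be read as desaturases. One locus joins scdb, a further stearoyl-CoA desaturase, with its neighbour trmt2b, which encodes a tRNA methyltransferase, so its level cannot be assigned to either gene. It was at 2.77, 1.43 and 220.35 FPKM in C libraries, at 22.58, 4.46 and 22.12 FPKM in APP_A libraries and at 0.55, 0.21 and 0.87 FPKM in APP_H libraries. All APP_H libraries were below all C and all APP_A libraries, and C3 alone was far above the rest. Over all genes, 12.9% and 14.5% did not overlap in these 2 comparisons, in either direction. The log2 difference was -3.06 (SE 1.59, limma adjusted p = 0.67) for APP_H vs. C, and it was -3.21 without APP_H3 and -0.99 without C3. In APP_H vs. APP_A it was -3.24 (SE 1.59, limma adjusted p = 0.48), and -3.39 without APP_H3. For APP_A vs. C it was 0.18 (SE 1.59) with all libraries and 2.25 without C3. FADS6 did not exceed 0.28 FPKM in any library and was not kept for testing.

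Among elongases, elovl6, elovl5 and elovl1b together held 85.7% to 98.8% of the summed elongase FPKM of a library. The locus of elovl6 lies on scaffold GL831156.1 at 1770480 to 1790412. It was at 128.90, 38.43 and 85.38 FPKM in C libraries, at 76.44, 354.27 and 251.15 FPKM in APP_A libraries and at 144.01, 37.42 and 1.91 FPKM in APP_H libraries. APP_A2 and APP_A3 were above the other 7 libraries, APP_A1 was within the C range, and APP_H3 was far below all. In APP_A it averaged 227.29 ± 140.44 FPKM, against 84.24 ± 45.25 FPKM in C (SD, n = 3 each), a log2 difference of 1.32 (SE 1.37, 95% interval -1.86 to 4.50). The log2 difference of APP_H vs. C was -1.59 (SE 1.37, limma adjusted p = 0.73), and -0.03 (SE 0.91) without APP_H3. Between APP_H and APP_A the log2 difference was -2.91 (SE 1.37, limma adjusted p = 0.47), and -1.35 (SE 0.91) without APP_H3.

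The locus of elovl5 lies on scaffold GL831145.1 at 1101150 to 1111442. It was at 89.83, 65.44 and 41.31 FPKM in C libraries, at 40.71, 121.34 and 77.40 FPKM in APP_A libraries and at 126.40, 56.98 and 6.58 FPKM in APP_H libraries. The diets overlapped in every pair. The log2 difference of APP_A vs. C was 0.22 (SE 1.01). That of APP_H vs. C was -0.73 (SE 1.01), and 0.44 (SE 0.61) without APP_H3. That of APP_H vs. APP_A was -0.95 (SE 1.01), and 0.22 (SE 0.61) without APP_H3.

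Of the 9 loci tested, elovl1b varied least. This locus, on scaffold GL831140.1 at 2326700 to 2362321, was at 21.50, 29.37 and 40.15 FPKM in C libraries, at 57.50, 31.80 and 27.17 FPKM in APP_A libraries and at 31.54, 61.12 and 38.77 FPKM in APP_H libraries. In APP_H3 it was not low: its level there was within the range of C. The log2 differences were 0.31 (SE 0.46) for APP_A vs. C, 0.51 (SE 0.46) for APP_H vs. C and 0.19 (SE 0.46) for APP_H vs. APP_A, and the estimates that involve APP_H were 0.56 and 0.25 without APP_H3. The elongase makeup of APP_H3 was unlike that of the other libraries, with 73.1% elovl1b, 12.4% elovl5 and 3.60% elovl6. In APP_A2 and APP_A3 elovl6 held 69.0% and 69.5%, whereas in APP_A1 it held 37.5%, and in C it held between 27.9% and 52.9%.

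**Figure D2:**
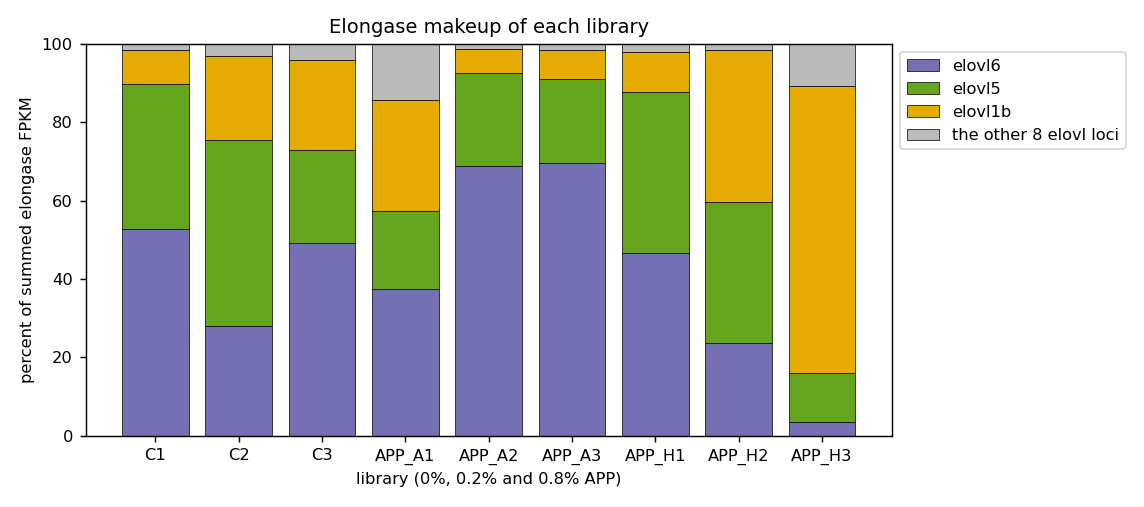
Share of the summed FPKM of the 11 elongase loci in each of the 9 libraries, in percent, with libraries in order of dietary APP. In APP_H3 elovl1b holds 73.1%, and in APP_A2 and APP_A3 elovl6 holds 69.0% and 69.5%.

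The other 8 elongase loci were low. Both loci with the symbol elovl8b span the same interval of scaffold GL831140.1, 2061657 to 2073348, so how reads were divided between them is uncertain. Locus 1 stayed between 0.08 and 3.08 FPKM. Locus 2 stayed between 0.61 and 5.54 FPKM except for 24.45 FPKM in APP_A1. Their log2 differences were 0.34 (SE 0.43) and 0.98 (SE 0.79) for APP_A vs. C, -0.38 (SE 0.43) and -0.44 (SE 0.79) for APP_H vs. C, and -0.71 (SE 0.43) and -1.42 (SE 0.79) for APP_H vs. APP_A. Without APP_H3, those for APP_H vs. C were 0.03 (SE 0.36) for locus 1 and -0.52 (SE 0.95) for locus 2, and those for APP_H vs. APP_A were -0.30 and -1.49. The loci elovl1a, elovl4a, elovl6l, elovl7a and elovl8a did not exceed 1.96 FPKM in any library, with the highest values of elovl1a (1.96 FPKM), elovl7a (1.27 FPKM), elovl6l (0.27 FPKM) and elovl4a (0.16 FPKM) all in APP_H3. For elovl1a the APP_A libraries, at 0.42 to 0.83 FPKM, were above the C libraries, at 0 to 0.10 FPKM, but below the filter. The APP_H libraries were at 0, 0.06 and 1.96 FPKM. How often loci below the filter separate in this way was not computed. The locus of elovl4b was listed at 0 in all 9 libraries. Whether a listed 0 means that the gene is silent was not tested. Of all loci, 1411 were at 0 in some library although the median of the other 8 was at least 10 FPKM. That count does not cover loci at 0 in all 9 libraries, and its cause was not tested.

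By median over the 9 libraries, the order of levels was scd, fads2 copy 2, elovl6, fads2 copy 1, elovl5, elovl1b, the scdb and trmt2b locus, elovl8b locus 2 and elovl8b locus 1. The level of scd exceeded that of fads2 copy 2 in 9 of 9 libraries, with medians of 3940 and 181 FPKM, and fads2 copy 2 exceeded elovl6 in 9 of 9. The next neighbours were not ordered beyond their spread, as elovl6 exceeded fads2 copy 1 in 5 libraries, fads2 copy 1 exceeded elovl5 in 5 and elovl5 exceeded elovl1b in 6.

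To be tested, a locus had to reach 1 FPKM in at least 3 libraries, which 20575 of the 37283 loci and 9 of the 16 desaturase and elongase loci did. Genes were called where the log2 fold change was at least 1 in size and the adjusted p was under 0.05. In APP_A vs. C 0 of the 9 loci were called, against 20 of all genes (0.0972%). In APP_H vs. C 0 of 9 were called, against 25 genes (0.122%), and in APP_H vs. APP_A 0 of 9, against 28 genes (0.136%). At an unadjusted limma p under 0.05, there were also 0 of 9 in each comparison, against 3.40%, 7.58% and 10.9% of all genes. An exact permutation test of each locus over the 280 groupings of the 9 libraries, which cannot give a p under 0.0036, gave 0 of 9 loci with a p under 0.05, against 8.35% of all genes. The lowest of these p-values was 0.17, for fads2 copy 2 and for the scdb and trmt2b locus.

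Without APP_H1, the permutation test gave 4 of 9 loci with an unadjusted exact p under 0.05, against 3631 of the 19992 genes kept in the other 8 libraries. These were fads2 copy 2 (exact p = 0.0036, the smallest possible), scd (exact p = 0.014), elovl8b locus 1 (exact p = 0.021) and elovl6 (exact p = 0.025). The fit then rested on APP_H2 and APP_H3 for the 0.8% diet, and the lowest limma adjusted p of a member was 0.11, for fads2 copy 2 in APP_H vs. APP_A. Without C3, 1 of 9 loci had an unadjusted exact p under 0.05, against 1174 of the 19770 genes then kept. This was the scdb and trmt2b locus (exact p = 0.039).

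The share of the 9 loci whose groups did not overlap was near that of all genes. In APP_A vs. C there was 1 such locus, fads2 copy 2, against 11.0% of all genes. In APP_H vs. C there was 1, the scdb and trmt2b locus, against 12.9%, and in APP_H vs. APP_A there was 1, the same locus, against 14.5%.

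The direction of the estimates is given as a description, as the comparisons share libraries. In APP_A vs. C the estimate was above 0 for 9 of 9 loci, with a median of 0.48, against 44.9% of all genes and a median of -0.05. Single libraries moved this, to 7 of 9 and a median of 0.22 without APP_A1 and to 8 of 9 and a median of 0.73 without APP_A3. Of all genes, 45.1% and 45.2% were then above 0. In APP_H vs. C it was above 0 for 1 of 9, elovl1b, with a median of -0.73, against 48.3% of all genes and a median of -0.03. Without APP_H3, it was above 0 for 5 of 9, with a median of 0.03, against 49.4% of all genes and a median of -0.005. In APP_H vs. APP_A it was above 0 for 1 of 9, again elovl1b, against 51.0% of all genes. The median was -1.42, against 0.02 over all genes. Without APP_H3, the estimate was above 0 for 3 of 9, with a median of -1.13, against 52.8% and a median of 0.04.

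**Figure D3:**
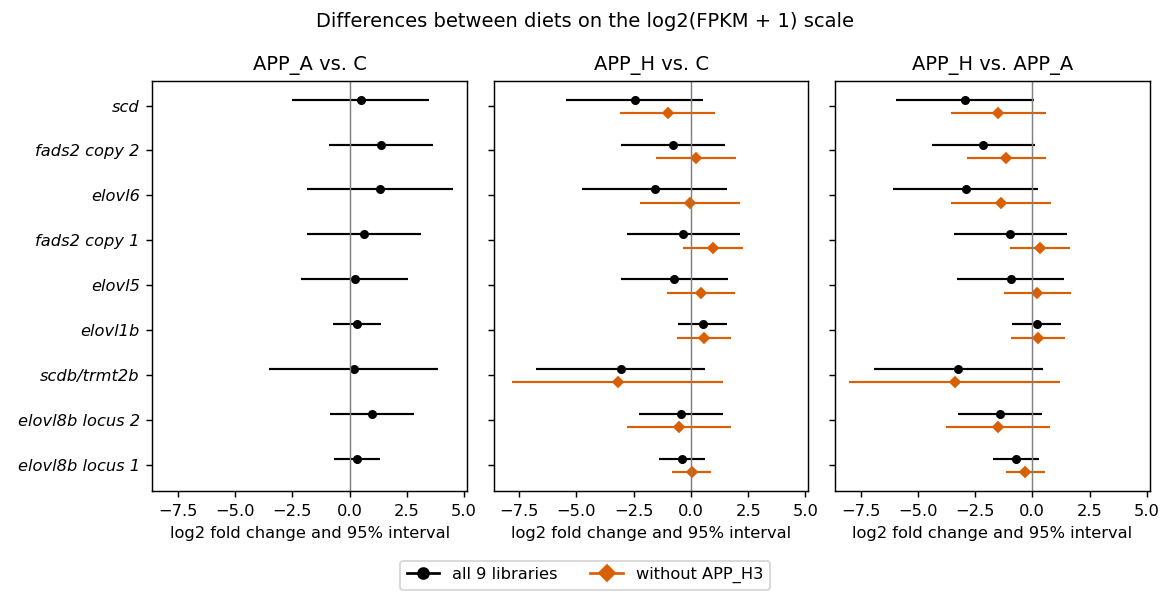
Log2 fold change with its 95% interval from limma for each of the 9 loci in the 3 comparisons, on the log2(FPKM + 1) scale, with all 9 libraries (black circles) and, where APP_H is compared, without APP_H3 (orange diamonds). Every interval includes 0, and the estimates of both fads2 copies, elovl5 and elovl8b locus 1 in APP_H vs. C change sign without APP_H3.

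The spread between libraries of the same diet was wide for most of the loci. The residual SD on the log2 scale was 2.19 for the scdb and trmt2b locus, 1.85 for elovl6, 1.73 for scd and 1.42 for fads2 copy 1. It was 1.33 for elovl5, 1.27 for fads2 copy 2 and 1.08 for elovl8b locus 2, against a median of 0.65 over all genes kept. For elovl8b locus 1 it was 0.55 and for elovl1b 0.49. Without APP_H3 it was 1.10 for elovl6, 1.05 for scd, 0.85 for fads2 copy 2, 0.70 for elovl5 and 0.62 for fads2 copy 1. For elovl8b locus 1 it was then 0.40, but 2.40 for the scdb and trmt2b locus, 1.18 for elovl8b locus 2 and 0.54 for elovl1b. The level in APP_H3 was lower than the median of the other 8 libraries by a factor of 56.1 for elovl6 and 49.1 for scd. This factor was 19.3 for elovl8b locus 1, 11.8 for fads2 copy 1, 10.9 for elovl5 and 10.4 for fads2 copy 2. It was 4.16 for the scdb and trmt2b locus and 1.40 for elovl8b locus 2, whereas elovl1b was higher in APP_H3. Among those other 8 libraries the highest value was still 12.1 times the lowest for scd and 9.47 times for elovl6.

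Ratios of loci within a library do not depend on its scaling. Over the 36 pairs of the 9 loci, the ratios did not overlap between diets for 4 pairs in APP_A vs. C, 6 pairs in APP_H vs. C and 6 pairs in APP_H vs. APP_A. These are 11.1%, 16.7% and 16.7% of the pairs, near the 12.1%, 13.7% and 15.4% found over all pairs of the 14553 kept genes that were above 0 in every library. In both comparisons with C, 1 of the 36 pairs did not overlap, and the share of all gene pairs that do so was not computed. That pair, chosen after its values were seen and given with no test, was scd over fads2 copy 2. This ratio was 24.1, 24.8 and 18.6 in C libraries, 9.84, 14.7 and 12.3 in APP_A libraries and 11.2, 7.98 and 3.86 in APP_H libraries. All 6 libraries from APP diets were below all 3 C libraries, APP_H1 and APP_A1 included. With both fads2 copies summed, the ratio was 16.6, 16.9 and 14.5 in C libraries. It was 7.20, 12.5 and 10.1 in APP_A libraries and 8.47, 3.36 and 2.90 in APP_H libraries. The C libraries lay above the rest here too, but the sum contains copy 2, so this is not a separate observation. The ratio of elovl6 to elovl5 was 1.43, 0.59 and 2.07 in C libraries, 1.88, 2.92 and 3.24 in APP_A libraries and 1.14, 0.66 and 0.29 in APP_H libraries. For this pair APP_H was below APP_A in every library, and both overlapped with C.

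**Figure D4:**
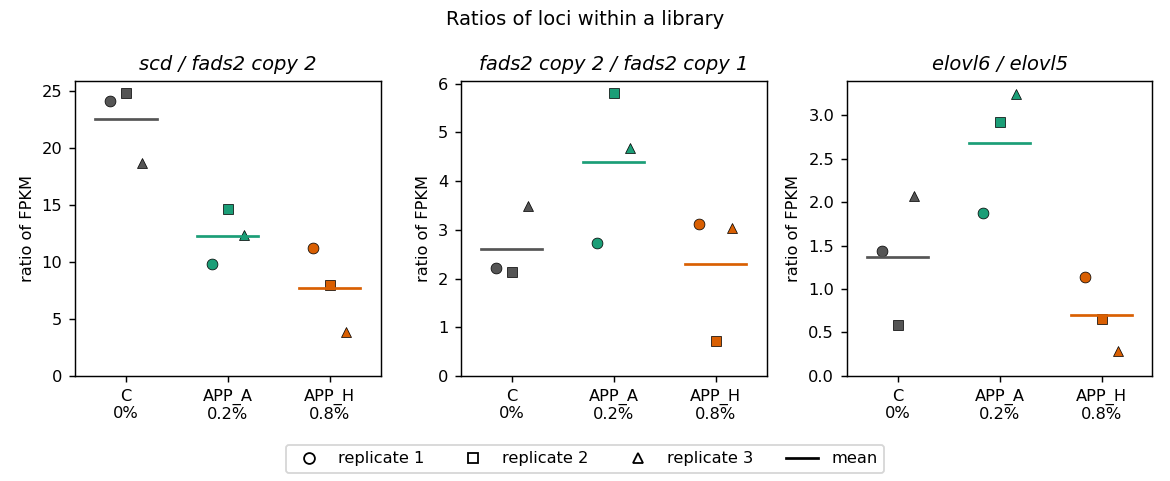
Ratios of FPKM within each library for scd over fads2 copy 2, fads2 copy 2 over copy 1 and elovl6 over elovl5, by diet (C, 0% APP; APP_A, 0.2%; APP_H, 0.8%), on linear axes from 0; symbols are libraries and bars are means of 3. The first ratio is 18.6 to 24.8 in C and at most 14.7 in the 6 libraries from APP diets. It was picked after its values were seen and was not tested.

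Correlations between pairs of the 9 loci ranged widely. The highest was that of elovl8b locus 1 with fads2 copy 2 (r = 0.95, and 0.87 without APP_H3). The lowest was that of elovl1b with elovl5 (r = -0.38, and -0.63 without APP_H3). Not every correlation weakened without that library, as r of the elovl8b loci with each other went from 0.57 to 0.72. The pairs given next were positive and had a lower r without it. On the log2(FPKM + 1) scale the correlation of fads2 copy 2 with scd was 0.93 (Spearman 0.93), and 0.84 over the 8 libraries without APP_H3. For elovl5 with elovl6 it was 0.90 (Spearman 0.78), and 0.63 without APP_H3. For the fads2 copies with each other it was 0.81 (Spearman 0.62), and 0.45 without APP_H3, and for copy 1 with scd it was 0.78 (Spearman 0.65), and 0.10 without APP_H3. The points share libraries, and the correlations describe these 9 libraries only. Their range over all gene pairs was not computed.

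Of 9525 other kept loci with a symbol, those most like fads2 copy 2 over the 9 libraries were ppp1r3ca (r = 0.96, Spearman 0.90), ABHD5 (r = 0.96, Spearman 0.95) and scmh1 (r = 0.96, Spearman 0.88), with r between 0.88 and 0.95 without APP_H3. Those most like copy 1 were tnfrsfa (r = 0.97, Spearman 0.97), adam22 (r = 0.97, Spearman 0.93) and pkp3b (r = 0.97, Spearman 0.88), with r between 0.87 and 0.90 without APP_H3. Those most like elovl6 were hp, which encodes haptoglobin, a plasma protein from liver (r = 0.99, Spearman 0.98), si:dkey-222l13.1 (r = 0.99, Spearman 0.98) and si:dkey-201c1.2 (r = 0.98, Spearman 0.98), with r between 0.94 and 0.95 without APP_H3. The members of these lists did not repeat between the 3 loci. They are the highest of 9525 values, and how many other loci came close to them was not counted.

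Genes that work with the desaturases and elongases were likewise not called in any comparison, with 0 of 59 tested genes in 8 lists. The elongation cycle needs a ketoacyl reductase, a dehydratase and an enoyl reductase after the elongase. Of its 5 tested genes, 0 were above 0 in APP_H vs. C (median log2 difference -0.80, and -0.33 without APP_H3). The lowest estimate was that of hacd3, a dehydratase, at 71.41, 20.39 and 5.84 FPKM in APP_H libraries, against 91.35, 84.70 and 86.19 FPKM in C libraries. Its log2 difference was -2.01 (SE 0.80, limma adjusted p = 0.63), and -1.17 (SE 0.56) without APP_H3. All 3 APP_H libraries were below all 3 C libraries, and over all genes 12.9% did not overlap between these diets in either direction. A locus under the symbol HACD3 in capitals had the highest estimate, -0.05 (SE 0.33).

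Cytochrome b5 and its reductases pass electrons to the desaturases. Of 5 tested genes, 3 had estimates above 0 in APP_H vs. C (median 0.08), from -1.33 (SE 1.06) for cyb5r2 to 0.83 (SE 0.42) for cyb5r3. Without APP_H3 these were -0.01 (SE 0.46) and 0.57 (SE 0.41), with a list median of 0.19. Of 6 other membrane desaturases and related hydroxylases, 1 was above 0 (median -0.32), from -1.98 (SE 1.18) for faxdc2 to 0.27 (SE 0.29) for degs1, the sphingolipid desaturase. Without APP_H3, 3 of the 5 genes still kept were above 0 (median 0.15), so that the list's direction turned with this library, and faxdc2 was at -0.58 (SE 0.67). With all libraries, neither list had a gene with an unadjusted limma p under 0.05.

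Among enzymes that supply saturated substrate, fatty acid synthase and acetyl-CoA carboxylase were low in all libraries. Fatty acid synthase (fasn) was at 1.75, 0.27 and 0.92 FPKM in C libraries, at 1.09, 4.08 and 0.69 FPKM in APP_A libraries and at 1.71, 0.25 and 0.39 FPKM in APP_H libraries. Acetyl-CoA carboxylase acaca, which makes malonyl-CoA, was at 3.08, 1.22 and 1.48 FPKM in C libraries, at 4.24, 6.50 and 3.25 FPKM in APP_A libraries and at 3.17, 1.07 and 1.57 FPKM in APP_H libraries. Every APP_A library exceeded every C library for acaca, and over all genes 11.0% did not overlap between these diets in either direction. APP_H overlapped with C for acaca, with a log2 difference of -0.01 (SE 0.38). Over the 7 tested genes of this list, 2 had estimates above 0 in APP_H vs. C (median -0.17), from -1.03 (SE 0.29, limma adjusted p = 0.49) for acacb to 0.37 (SE 0.66) for me1, malic enzyme. Without APP_H3, 4 of 7 were above 0 (median 0.06), with acacb at -0.78 (SE 0.25) and me1 at 0.91 (SE 0.62).

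Of 8 long-chain acyl-CoA synthetases, which activate fatty acids, 7 had estimates above 0 in APP_A vs. C (median 0.09) and 2 in APP_H vs. C (median -0.63). In APP_H vs. C the estimates ranged from -1.76 (SE 0.95) for slc27a2b to 0.75 (SE 0.27, limma adjusted p = 0.60) for acsl4a. Without APP_H3 the list's median was -0.07, with slc27a2b at -0.53 (SE 0.33) and acsl4a at 0.93 (SE 0.24). All 8 genes of peroxisomal chain shortening had estimates below 0 in APP_H vs. C (median -1.16, and -0.26 without APP_H3). Of 25 hepatocyte markers, 1 was above 0 in this comparison (median -1.41). Without APP_H3, 13 of these markers (median 0.07) and 0 of the 8 peroxisomal genes were above 0. Of 4 glycerolipid acyltransferases, 1 was above 0 in APP_H vs. C (median -0.50), from -1.70 (SE 1.08) for dgat2 to 0.33 (SE 0.46) for lpcat3. Without APP_H3 the median was -0.23, dgat2 was at -0.28 (SE 0.37) and lpcat3 was at -0.17 (SE 0.30).

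Transcription factors and cofactors of these genes did not share a direction, with 7 of 16 above 0 in APP_H vs. C (median -0.16). The range was from -1.27 (SE 0.68) for pparaa, a fatty acid receptor, to 1.06 (SE 0.42, limma adjusted p = 0.64) for srebf2, a regulator of sterol synthesis. Without APP_H3, 9 of 16 were above 0 (median 0.02), with pparaa at -0.59 (SE 0.51) and srebf2 at 1.43 (SE 0.37). Sterol regulatory element binding transcription factor 1 (srebf1), known in mammals to drive scd and fads2, was at 1.78, 1.71 and 1.89 FPKM in C libraries, at 3.83, 1.45 and 2.01 FPKM in APP_A libraries and at 4.57, 1.63 and 2.97 FPKM in APP_H libraries. The diets overlapped, and its log2 difference of APP_H vs. C was 0.47 (SE 0.35, limma adjusted p = 0.71).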

How the data were processed

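Liver RNA of 9 libraries, 3 per diet, was examined. The deposited values are FPKM per locus and library, made by the authors; the methods of the paper name TopHat 2 and Cufflinks, whereas the submitters' processing notes name Bowtie 0.12.2, HISAT2 2.0, StringTie 1.3.0 and the mouse build mm8. The table has tilapia scaffolds and Cufflinks-type locus names, and its build is not given in the sources used here. Limma 3.58.1 in R 4.3.3 was fitted to log2(FPKM + 1) of all 9 libraries, 1 mean per diet, with an intensity trend and Benjamini-Hochberg adjustment over 20575 genes. A fold change on this scale understates changes of low genes. With 3 libraries against 3, a permutation p for 1 pair of diets cannot go below 0.10, so the permutation test used all 3 diets. The limma and permutation steps were tested on simulated data. With the spread of each gene kept, limma called 36 of 200 genes (18%) given a log2 change of 2 in APP_H vs. C. At a log2 change of 4 it called 124 of 200 (62%). The 200 genes were drawn at random from all genes kept, with normal noise of equal spread in each diet. These rates are not those of the 9 loci, most of which had a wider spread than the median gene. A locus that was not called may therefore still differ between diets. The alternatives were other pseudocounts (0.1 and 0.01), filters, scalings and fits, and each library left out in turn. Members, gene lists and markers were chosen with earlier results of these data known. The genes named are all members, some markers, and the loci most like the fads2 copies and elovl6. Of the partner genes, those with the largest rise and fall of a list in APP_H vs. C are named, with fasn, acaca and srebf1. None is named for peroxisomal chain shortening. The values of some partner genes are not reported here. No sequences are shown.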

Additional observations from a re-analysis of the deposited data

How the results depend on the processing

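Under every alternative, 0 of the 9 loci were called in each comparison, with adjusted p-values of at least 0.099. In the 264 log2 fold changes recomputed under other settings, with no library left out in turn, no sign changed. The filters, the fit of only the 2 groups compared, the replicate block and the fit without trend leave an estimate as it is. Their signs could therefore not change, nor could those of the other loci where the fads2 copies were summed. Leaving out 1 library changed 10 of 27 signs. In APP_A vs. C the ranges were -0.0006 to 0.53 for elovl1b, -0.15 to 0.63 for elovl5 and -1.01 to 2.25 for the scdb/trmt2b locus. In APP_H vs. C they were -1.09 to 0.96 for fads2 copy 1, -1.91 to 0.22 for copy 2 (0.56 for the sum of both copies without APP_H3, added later), -1.60 to 0.44 for elovl5 and -0.80 to 0.032 for elovl8b locus 1. In APP_H vs. APP_A they were -1.71 to 0.34 for fads2 copy 1, -1.81 to 0.22 for elovl5 and -0.072 to 0.51 for elovl1b. The number of loci with an exact permutation p under 0.05 was between 0 and 4. The causes were not tested.

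Genes called over the whole table were more sensitive. With a pseudocount of 0.01 42 genes were called for APP_A against C (20 with a pseudocount of 1), 38 for APP_H against C (25) and 53 for APP_H against APP_A (28), and with only the 2 groups compared 35, 30 and 57 in the same order. The leave-one-out counts depend on the filter. Where it was applied again to the other 8 libraries, as first computed, they were 4 to 28, 5 to 34 and 4 to 42. Where the genes kept over 9 libraries were retained, an alternative added after those counts had been seen, they were 12 to 26, 18 to 55 and 5 to 59. Without APP_H3, APP_H vs. C had 26 calls in the one and 55 in the other. The member fold changes and the counts of members called and of members past the permutation threshold were the same in both. An unadjusted p under 0.05 with the fold change gave 522, 1131 and 1624 genes and 0 of 9 loci. Combined with the other settings it gave at most 1, 2 and 4 loci in the same order, each of these reached without APP_H1. Without that library 591, 3008 and 3804 of 19992 genes passed. For APP_A against C it also gave 1 without C3 (501 of 19770 genes) and with only the 2 groups compared (668 of 20575). For APP_H against C it gave 1 with a pseudocount of 0.01 (1210 of 20575 genes) and without C2 (943 of 19995). For APP_H against APP_A it gave 3 under quantile normalization (1714 of 20575 genes) and 2 with the replicate block (1698). In this comparison it gave 1 with either other pseudocount (1944 and 1886 genes), with only the 2 groups compared (1303) and without C3 (1531 of 19770). Quantile normalization moved the median of all genes in APP_A vs. C to 0.06, against -0.05. With the replicate number as a block, 7, 8 and 3 genes and 0 loci were called. Same-numbered libraries deviated together weakly (r from -0.07 to 0.13), which cannot show whether they share more than a number. FPKM without reads leave the depth per locus unknown.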
